A study of Mus musculus with 4 samples.

Results

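C1q-low inflammatory monocytes of the mouse colon were defined as barcodes with at least 3 UMIs of Lyz2, at least 2 UMIs of Ly6c2 and Chil3 together and at most 2 UMIs of C1qa, C1qb and C1qc together. They also had at most 1 UMI of the Cd3 genes, at most 1 UMI of Cd79a and Cd79b, and none of the neutrophil genes Retnlg and Cxcr2. A UMI is a tag that marks one captured RNA molecule. The rule found 412 such monocytes among 20428 barcodes that passed a quality filter. The stress libraries held 223 and 118 of them, and the control libraries held 40 and 31. CD45+ leukocytes had been sorted from whole colon of WT C57BL/6 mice after 7 days of daily restraint stress (2 libraries, stress 1 and stress 2) or a control treatment (2 libraries, control 1 and control 2), and were profiled with 10x Genomics droplets. Age and sex are not given in the labels, nor is whether each library came from separate or pooled animals. The p-values therefore measure only the spread between these libraries, which may be technical.

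Ly6C-high monocytes leave the blood through the chemokine receptor Ccr2 and enter the gut wall. There they lose Ly6C, gain MHC class II and, in the resting colon, mature into macrophages that express complement C1q. Interferon gamma from T cells and innate lymphocytes makes such cells switch on guanylate-binding proteins, antigen-processing genes and chemokines such as Cxcl9 and Cxcl10.

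Promoters of genes that answer to interferon often carry 1 of 2 known elements, the gamma-activated site (GAS, letters TTCNNNGAA, the same on both strands) and the core of the interferon-stimulated response element (ISRE, GAAA, any 2 bases and GAAA again, searched on both strands; its matches in a promoter can overlap). In RefSeq promoter sequence on GRCm38.p6, 21 of the 31 genes of an interferon gamma response list had an entry. The 250 bases upstream of the start site held the GAS letters in 8 of them (38.1%), against 8.13% of 27025 genes. The ISRE letters were in 10 of them (47.6%), against 3.46% of all genes. A match of letters is a description and not a bound site. The 3 windows printed here belong to the listed genes with the smallest p-values for stress against control that held a match within 120 bases of the start site. Each is read 5′ to 3′ on its gene's strand and ends just before the start site, with matched letters in capitals.
Irf1, chr11:53769894-53770013, plus strand, GAS: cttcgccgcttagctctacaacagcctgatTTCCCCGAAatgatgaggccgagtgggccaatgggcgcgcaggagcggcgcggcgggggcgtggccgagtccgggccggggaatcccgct
Gbp3, chr3:142559924-142560043, plus strand, 2 overlapping ISRE matches: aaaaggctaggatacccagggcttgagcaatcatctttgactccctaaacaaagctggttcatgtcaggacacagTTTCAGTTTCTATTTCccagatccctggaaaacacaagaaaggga
Gbp7, chr3:142530216-142530335, plus strand, 2 GAS and 1 ISRE match: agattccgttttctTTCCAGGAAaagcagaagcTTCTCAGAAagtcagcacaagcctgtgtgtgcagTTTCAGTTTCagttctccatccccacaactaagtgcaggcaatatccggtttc

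The label was checked against genes the rule did not use. Ccr2 was detected in 86.5% and 92.4% of the monocytes in stress libraries, and in 90% and 90.3% in control libraries. Ccr2 had a UMI in 15.5% and 19.9% of barcodes with T cell genes in stress libraries, and in 16.4% and 5.0% in control libraries. Macrophages, defined below by C1q, had it in 74.3% and 60% of cells under stress and in 37.3% and 66.7% in controls. Plac8, a gene of circulating monocytes, was detected in 99.1% and 100% of the monocytes under stress and in 97.5% and 93.5% of those in controls. It was also detected in 44.2% and 53.7% of kept barcodes outside the Lyz2 classes under stress, and in 43.5% and 34.7% in controls. Macrophage genes were detected in the monocytes too. Apoe had a UMI in 86.1% and 91.5% of them under stress and in 87.5% and 90.3% in controls. In macrophages it had one in 93.6% and 96.8% under stress and in 95.5% and 94.9% in controls. Adgre1 had a UMI in 44.4% and 55.1% of the monocytes under stress and in 45% and 54.8% in controls. Its shares in macrophages were 52.9% and 52.9% under stress and 57.7% and 56.4% in controls. Mrc1 had a UMI in 7.62% and 5.08% of the monocytes under stress and in 10% and 19.4% in controls. Macrophages had it in 25.7% and 34.8% under stress and in 54.5% and 38.5% in controls. Flt3, a dendritic cell marker, had a UMI in 4.04% and 8.47% of the monocytes under stress and in 0% and 19.4% in controls. S100a8, which marks neutrophils, had a UMI in 0% and 0.847% of the monocytes of stress libraries and in 0% and 3.23% of those of control libraries. Csf3r, the granulocyte growth factor receptor, had one in 21.5% and 38.1% under stress and in 7.5% and 32.3% in controls. All 5 red cell genes were at 0 in every library. Summed conventional dendritic cell markers (10 genes) came to 186 and 168 CPM (counts scaled to a common total per library, as defined for each value below) under stress, and to 105 and 193 CPM in controls. The 13 neutrophil markers came to 261 and 232 CPM under stress and to 178 and 319 CPM in controls. The 12 plasma cell genes moved with the groups, at 1881 and 2726 CPM under stress and 653 and 701 CPM in controls, and their part in the results was not tested.

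The values that chose the cells are given as a description. The median sum of Ly6c2 and Chil3 was 5 and 7 UMIs in the stress libraries and 6.5 and 4 UMIs in the control libraries. Both genes were present in 51.6% and 50% of the monocytes under stress, and in 50% and 32.3% of those in controls. C1q was at 0 UMIs in 92.4% and 91.5% of the monocytes under stress, and in 97.5% and 100% of those in controls. C1q was thus undetected in most of the cells of every library. Just inside the rule, 41 and 14 cells of stress libraries and 10 and 7 cells of control libraries had 2 UMIs of Ly6c2 and Chil3. Just outside it, 51 and 22 barcodes of stress libraries and 11 and 15 barcodes of control libraries had 1 such UMI. At the C1q limit, 3 and 2 monocytes of stress libraries and none of control libraries had 2 UMIs, while 4 and 1 barcodes of stress libraries and none of control libraries were left out with 3. The median monocyte held 4276 and 8805.5 UMIs in the stress libraries, and 5788 and 7148 UMIs in the control libraries. The stress libraries thus held both the shallowest and the deepest monocytes. At most 12 kept barcodes were shared by any pair of libraries, and 1 monocyte of stress 1 had a barcode that also occurred in control 2.

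A larger share of the kept barcodes were C1q-low monocytes in both stress libraries than in both control libraries. The share was 2.68% in stress 1 (exact 95% binomial interval 2.34 to 3.05%) and 2.86% in stress 2 (2.37 to 3.41%), against 1.57% in control 1 (1.12 to 2.13%) and 0.570% in control 2 (0.388 to 0.808%). The groups did not overlap, although control 1 and control 2 differed from each other beyond their counting intervals. The mean was 2.77 ± 0.126% under stress and 1.07 ± 0.708% in controls (SD, n = 2 each), and a two-sided exact permutation test gave p = 0.333, the smallest value that 2 libraries against 2 can reach. Intervals cover counting error only, and the CD45 sort sets the denominator.

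Lyz2-positive phagocyte barcodes had at least 3 Lyz2 UMIs and met the rule's limits on the Cd3, Cd79, Retnlg and Cxcr2 genes. Among them the monocytes made up 35.2% in stress 1 and 28% in stress 2, against 10.7% in control 1 and 18.2% in control 2. The mean was 31.6 ± 5.05% under stress and 14.5 ± 5.35% in controls (SD, n = 2 each, two-sided exact permutation p = 0.333). Cells of the neighbouring C1q-high class (macrophages, at least 3 C1q UMIs and at most 1 UMI of Ly6c2 and Chil3) numbered 187 and 155 in stress libraries and 220 and 39 in control libraries. Phagocyte barcodes with at least 3 C1q UMIs and at least 2 UMIs of Ly6c2 and Chil3 together were termed monocytes in transition. They numbered 47 and 49 in stress libraries and 8 and 2 in control libraries.

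**Figure D1:**
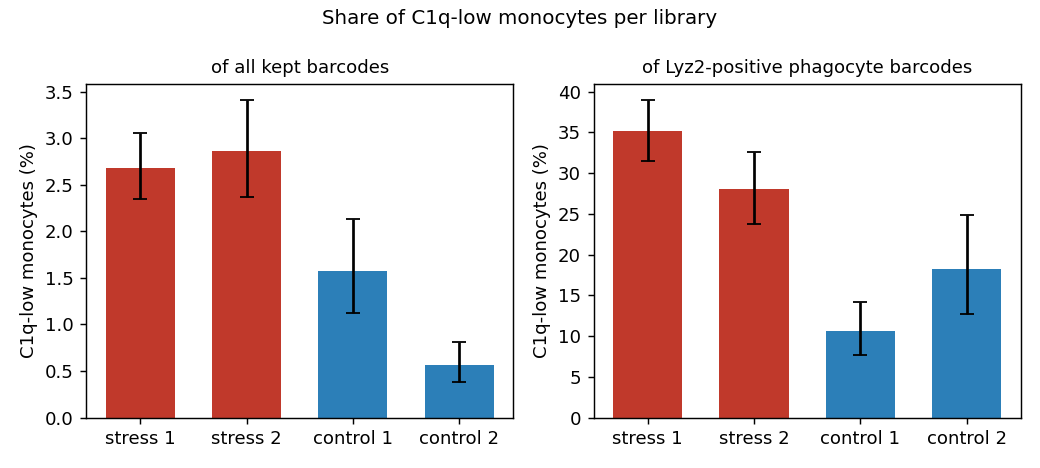
Share of C1q-low monocytes in each library (percent), of all kept barcodes (left) and of Lyz2-positive phagocyte barcodes (right). Bars are single libraries, red for stress and blue for control, with exact 95% binomial intervals, and both stress bars lie above both control bars in each panel.

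The genes with the largest excess over all other kept barcodes were Hp, Mgst1, Thbs1 and Fn1. Values in this and the next paragraph are CPM of UMIs summed over cells, and no test was made because the cells were chosen on their expression. Hp, the haemoglobin scavenger haptoglobin, stood at 458 and 375 CPM in the monocytes of stress libraries and at 397 and 363 CPM in those of control libraries, a median of 5.20 log2 above all other kept barcodes. Next came Mgst1, a membrane glutathione transferase (4.63), Thbs1, the matrix glycoprotein thrombospondin (4.61), Fn1, fibronectin (4.39), Ifitm6 (4.35) and F13a1, a subunit of coagulation factor XIII (4.34). In control 1, where the other barcodes held more of both, the log2 ratio was 2.13 for Mgst1 and 1.48 for Fn1. Clec4e, the receptor Mincle for mycobacterial glycolipid (4.28), the chemokine Ccl6 (4.23) and Cd14, the coreceptor for lipopolysaccharide (4.08), were also among the first 15.

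Against C1q-high macrophages, the largest excess was in Ifitm6, with 362 and 323 CPM in monocytes of stress libraries and 379 and 527 CPM in those of control libraries. Macrophages had 27.5 and 24.4 CPM of it in stress libraries and 24.3 and 19.4 CPM in control libraries. Slpi, a secreted inhibitor of leukocyte proteases, followed Hp in that order with a median log2 ratio of 3.30. The greatest deficit was in Cd81, a tetraspanin, at 3.26 and 5.03 CPM in monocytes under stress and 9.13 and 9.67 CPM in monocytes of controls, against 322 and 392.4 CPM in macrophages under stress and 1499 and 805 CPM in macrophages of controls. Pf4, Mgl2, Retnla, Ms4a7 and Ccl8, genes of mature or alternatively activated macrophages, had median log2 ratios between -5.19 and -4.20. Retnla reached 111 CPM in the monocytes of control 2 and at most 1.01 CPM in those of the other 3 libraries.

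A total of 6 genes passed the test for stress against control in the monocytes, and all 6 rose. The test was edgeR's quasi-likelihood fit on UMIs summed per library, with p-values adjusted by Benjamini-Hochberg over 5526 genes and a threshold of 0.05, so that 0.109% of the genes were called. No gene fell, while 231 genes were positive (4.18%) and 187 negative (3.38%) at an unadjusted p under 0.05. DESeq2, run as an alternative, called 3 genes. The count was 14 without stress 1, 11 without stress 2, 163 without control 1 and 58 without control 2. From here through the results on monocyte identity and resident macrophage genes, CPM of single genes are scaled by edgeR's TMM factors unless called plain. Sums over gene lists are plain CPM, and log2 changes are stress minus control.

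AW112010, annotated as a long intergenic RNA (chr19:11047612-11055808, minus strand) on GRCm38 and known to be induced in myeloid cells by inflammatory stimuli, had 432 and 479 CPM under stress, against 206 and 149 CPM in controls. Its log2 change was 1.36 (SE 0.22, edgeR adjusted p = 0.0371), and without stress 2 the adjusted p was 0.0591. T cell barcodes held more of it than the monocytes, with 1483 and 1524 CPM of plain UMIs under stress and 1407 and 466 CPM in controls. The 15 summed T and NK cell markers came to 152 and 251 CPM in monocytes under stress and to 128 and 33.9 CPM in monocytes of controls, so that control 2 was lowest in both, and their part in the result was not tested.

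Ifitm1, a small membrane protein induced by interferon that restricts virus entry (chr7:140967221-140969825, plus strand), had 77 and 109 UMIs in the monocytes of stress libraries, against 4 and 2 UMIs in those of control libraries. These were 85.5 and 113 CPM under stress and 19.2 and 9.92 CPM in controls. Its log2 change was 2.75 (SE 0.47, edgeR adjusted p = 0.0440), estimated against very few control molecules.

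Also called were the immunoglobulin genes Igha, Igkc and Jchain, which plasma cells transcribe. Igha had 507 and 694 CPM in the monocytes of stress libraries, against 115 and 84.3 CPM in those of control libraries (log2 2.59, SE 0.26, edgeR adjusted p = 0.000864). It was detected in 80.3% and 98.3% of the monocytes under stress and in 37.5% and 41.9% of those in controls. Barcodes with T cell genes, which do not transcribe it, had an Igha UMI in 75.4% and 96.3% of cases under stress and in 41.4% and 35.4% in controls. The monocytes' share was above the T cell share in both stress libraries and in control 2 and below it in control 1. These shares were taken without bringing the barcodes to equal depth. The median monocyte held 4276 and 8805.5 UMIs under stress and 5788 and 7148 UMIs in controls. The median T cell barcode held 2393.5 and 4732 UMIs under stress and 3173 and 3650 UMIs in controls. The part of depth in the order of the shares was not tested. Igkc stood at 779 and 1347 CPM of plain UMIs in monocytes under stress and 210 and 160 CPM in monocytes of controls, against 7508 and 3509 CPM in T cell barcodes under stress and 5924 and 321 CPM in those of controls. The part of free plasma cell RNA in the 3 calls was not tested. The 12 summed plasma cell genes took 288700 and 339950 CPM of all kept UMIs in stress libraries and 205960 and 98084 CPM in control libraries.

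No gene fell past the threshold. Those with the smallest p and a negative change were Idi1, an enzyme of cholesterol synthesis, Metrnl, Fbxo34, Anxa6 and Tcp11l2. Idi1 had 31.1 and 42.5 CPM in the monocytes of stress libraries, against 91.2 and 114 CPM in those of control libraries (log2 -1.47, SE 0.32, edgeR adjusted p = 0.173). Metrnl, a secreted factor of macrophages and fat, had 187 and 170 CPM under stress, against 302 and 332 CPM in controls (log2 -0.83, adjusted p = 0.296). The libraries of the groups did not overlap for either gene, as for 20.2% of all genes tested in that direction.

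Genes of the interferon gamma response were higher in the monocytes of stress libraries as a list. Of 28 tested members 1 passed the test, against 0.109% of all genes. This list, like those below, was chosen with earlier results of these data known, so comparisons with all genes are a description and not a test. Of the 28, 27 had a positive change, against 49.6% of all genes, and the median log2 change was 1.07, against -0.00 over all genes. In 22 of them both stress libraries lay above both control libraries, as did 20.2% of all genes. The median was 0.60 without control 2 and 1.81 without control 1, and 0.33 when cells were chosen after every barcode had been thinned to 1000 UMIs. The summed list (31 genes, plain CPM) came to 8750 and 7712 CPM under stress, against 5275 and 2670 CPM in controls. Over all kept barcodes the same sum was 2463 and 2475 CPM in stress libraries and 2482 and 1800 CPM in control libraries, so that control 1 was not below the stress libraries there. The median monocyte had 3.82% and 3.87% mitochondrial UMIs under stress and 2.82% and 3.31% in controls, and the part of this in the result was not tested.

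Gbp3, a guanylate-binding protein that acts on vacuoles holding pathogens, had 298 and 279 CPM in stress libraries, against 125 and 44.6 CPM in control libraries (log2 1.76, edgeR adjusted p = 0.0570). Irf1, an interferon-induced transcription factor, had 360 and 403 CPM under stress, against 197 and 74.4 CPM in controls (log2 1.48, edgeR adjusted p = 0.136). Tap1, the transporter that moves peptides into the endoplasmic reticulum, had 348 and 308 CPM under stress, against 178 and 94.2 CPM in controls (log2 1.26, edgeR adjusted p = 0.136). Control 2 was the lowest library for each of the 3, and control 1 lay between it and the stress libraries. Gbp7 followed the same order, with 189 and 153 CPM under stress and 91.2 and 9.92 CPM in controls (log2 1.74, edgeR adjusted p = 0.369).

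**Figure D2:**
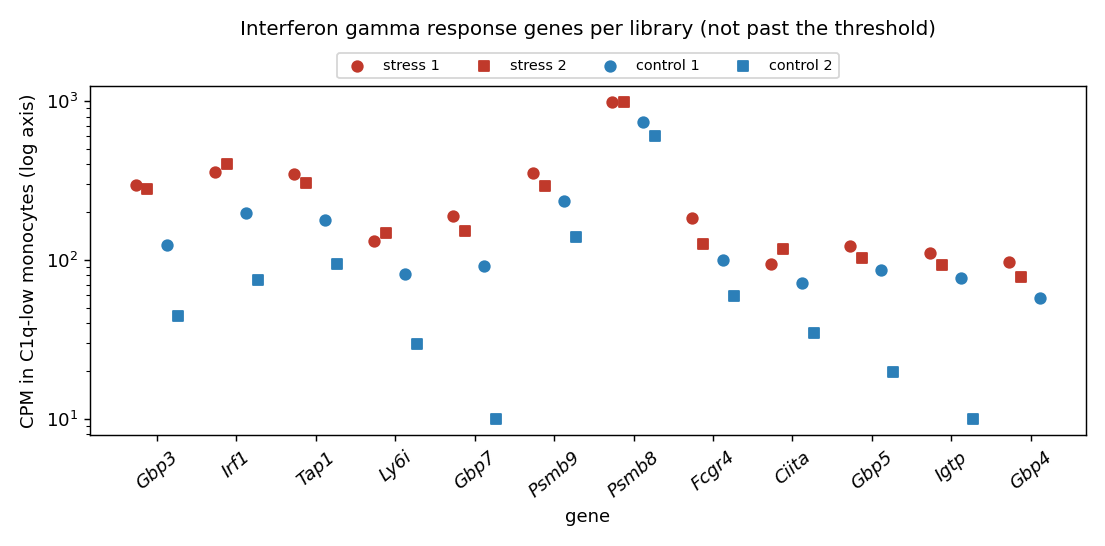
Expression (TMM-scaled CPM, log axis) of the 12 interferon gamma response genes with the smallest p among those that did not pass the test in C1q-low monocytes. Each point is 1 library, red for stress and blue for control, circles for replicate 1 and squares for replicate 2, and Gbp3 lies at 298 and 279 CPM in stress libraries and at 125 and 44.6 CPM in control libraries, while Gbp4 was at 0 CPM in control 2 and has no point there.

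Antigen presentation by MHC class I followed the same direction, with no member past the threshold. All 17 tested genes had a positive change (median log2 0.78), and 14 had both stress libraries above both control libraries, as did 20.2% of all genes. When cells were chosen after thinning to 1000 UMIs, 13 of the 17 were positive and the median was 0.38. The list shares Tap1, Psmb8 and Psmb9 with the interferon gamma list, and its median was 0.41 without control 2. H2-T22, a non-classical class I heavy chain, had 159 and 179 CPM under stress, against 106 and 59.5 CPM in controls (log2 1.03, edgeR adjusted p = 0.364). H2-K1, the classical class I heavy chain, had 2198 and 2101 CPM under stress, against 1684 and 1502 CPM in controls (log2 0.43, edgeR adjusted p = 0.577). Heavy chain genes of this family are near-identical in places and may exchange reads.

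Among 11 tested genes of an MHC class II presentation list, 9 had a positive change and none passed. Their median of 0.19 became -0.01 without control 2 and 0.35 without control 1. It was 0.02 when cells were chosen after thinning to 1000 UMIs. The list includes Cd40, which is not a class II gene, and shares Ciita with the interferon gamma list. In 5 of the 11 both stress libraries lay above both control libraries, as in 20.2% of all genes. H2-Ab1, the class II beta chain, had 5078 and 5394 CPM under stress, against 3311 and 4145 CPM in controls (log2 0.49, edgeR adjusted p = 0.492). Cd40, the costimulatory receptor, had 132 and 96.3 CPM under stress, against 48.0 and 29.7 CPM in controls (log2 1.54, edgeR adjusted p = 0.296). Ciita, the master activator of class II genes, had 94.4 and 117 CPM under stress, against 72.0 and 34.7 CPM in controls (log2 0.98, edgeR adjusted p = 0.556).

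Genes that answer mainly to type I interferon had a smaller median change, and that difference between lists was not tested. Of 22 tested, 16 were positive with a median of 0.24, none passed, and 5 had stress libraries above controls without overlap, against 20.2% of all genes. The median was -0.26 without control 2, 0.95 without control 1, 0.36 without stress 2 and 0.14 without stress 1. With cells chosen after thinning to 1000 UMIs, 5 of 19 genes were positive and the median was -0.35. Irf7, which amplifies the type I interferon response, had 179 and 125 CPM under stress, against 288 and 159 CPM in controls (log2 -0.56, edgeR adjusted p = 0.661).

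**Figure D3:**
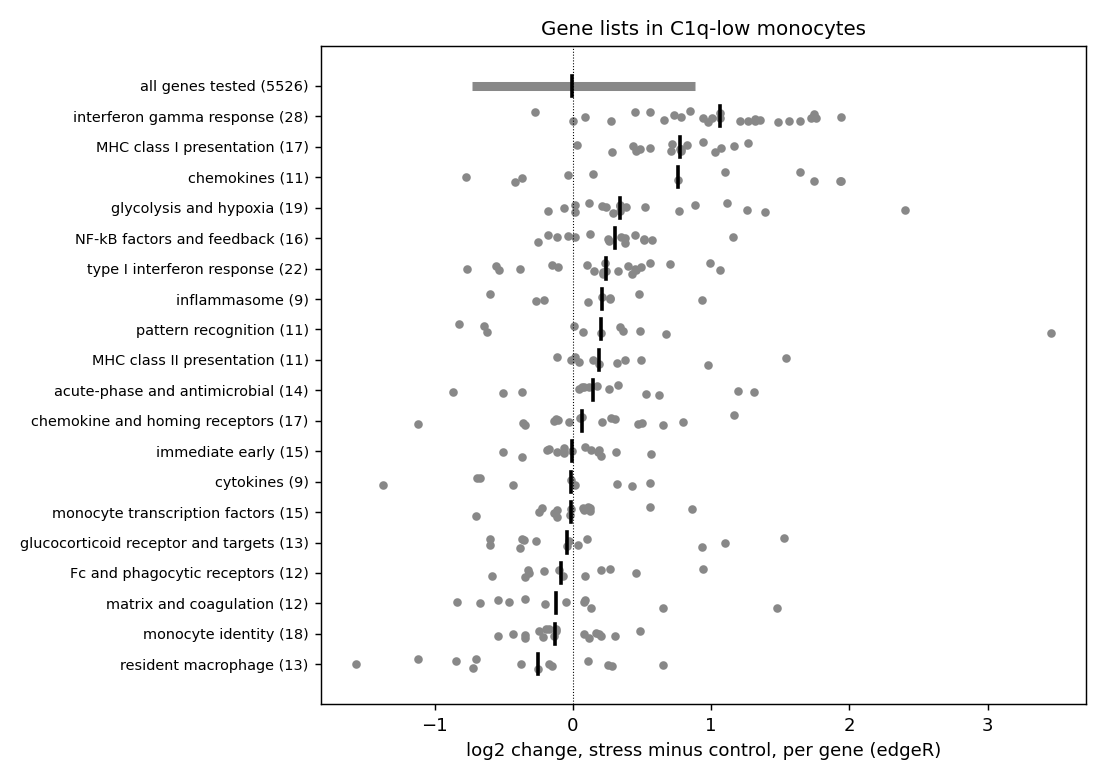
Log2 change, stress minus control, for each tested gene of lists with at least 9 tested genes in C1q-low monocytes (edgeR). Grey points are genes, black bars are list medians, and the grey band for all 5526 genes spans the 5th to the 95th percentile, with the interferon gamma median at 1.07 and that of all genes at -0.00.

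Inflammatory mediators gave no call and no single direction. Among 9 tested cytokines 4 were positive (median log2 -0.01), and among 11 chemokines 7 were positive (median 0.76). Il1b had a UMI in 97.6% and 92.9% of monocytes under stress and in 94.6% and 83.9% of those in controls, after each cell had been thinned to 2000 UMIs. Unthinned, the shares averaged 97.2 ± 0.812% under stress and 91.4 ± 1.54% in controls (SD, n = 2 each). Tnf had a UMI in 7.77% and 9.73% of thinned monocytes under stress and in 8.11% and 9.68% of those in controls, and the groups overlapped. Nos2, the nitric oxide synthase of activated macrophages, had no UMI in 206 and 113 thinned monocytes of stress libraries, which allows shares of up to 1.46% and 2.65%, or in 37 and 31 of control libraries, which allows up to 8.11% and 9.68%. These limits cover cells with a UMI at that depth and not cells that express the gene. T cell barcodes, thinned alike, had an Il1b UMI in 2.56% and 3.32% under stress and in 0.301% and 0.316% in controls, and a Tnf UMI in 4.23% and 4.91% under stress and in 4.22% and 3.79% in controls. Thinning left out 17 and 5 monocytes in stress libraries and 3 and 0 in control libraries.

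The chemokines Cxcl9 and Cxcl10, which attract T cells through Cxcr3, varied widely between the control libraries. Cxcl10 had 1384 and 913 CPM under stress, against 557 and 39.7 CPM in controls (log2 1.94, edgeR adjusted p = 0.826). After thinning, 29.6% and 27.4% of the monocytes of stress libraries had a Cxcl10 UMI, against 13.5% and 6.45% of those in control libraries (difference 18.5 percentage points, two-sided exact permutation p = 0.333). Cxcl9 had a UMI in 17.5% and 25.7% under stress and in 10.8% and 0% in controls, where 0 of 31 cells allows up to 9.68%. Both stress libraries lay above both control libraries for each gene. T cell barcodes had a Cxcl10 UMI in 6.23% and 7.75% under stress and in 9.64% and 2.92% in controls, and a Cxcl9 UMI in 0.334% and 0.475% under stress and in 0.301% and 0.0790% in controls. Before thinning the median depth of the monocytes was 4344 and 9050 UMIs under stress and 5959 and 7148 UMIs in controls, against 2736 and 4877 UMIs in the T cell barcodes under stress and 3304 and 3815.5 UMIs in those of controls. Ccl6 pointed the other way, with 973 and 874 CPM under stress, against 1329 and 1145 CPM in controls (log2 -0.42, edgeR adjusted p = 0.616).

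Other pathway lists had no member past the threshold. Of 16 factors and inhibitors of NF-kB, 12 were positive (median 0.30, but 0.11 without control 2). Tnfaip2, the member with the smallest p, had 366 and 351 CPM under stress, against 216 and 104 CPM in controls (log2 1.16, edgeR adjusted p = 0.259). Of 19 genes of glycolysis and hypoxia, 17 were positive, with a median of 0.34 that was 0.15 without control 2 or without stress 2, 0.52 without control 1 and 0.54 without stress 1. Hk2, the inducible hexokinase, had 78.9 and 85.0 CPM under stress, against 38.4 and 29.7 CPM in controls (log2 1.26, edgeR adjusted p = 0.369).

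Glucocorticoid receptor targets, of interest because restraint raises corticosterone, had 5 positive changes among 13 tested and a median of -0.04, which was -0.06 without control 2, -0.15 without control 1 and -0.25 without stress 2. Txnip had 152 and 210 CPM under stress, against 130 and 59.5 CPM in controls (log2 0.93, edgeR adjusted p = 0.555). Dusp1, a phosphatase induced by glucocorticoids, had 1056 and 1228 CPM under stress, against 1492 and 1453 CPM in controls (log2 -0.37, edgeR adjusted p = 0.653). Fkbp5, a classical target, had 21 and 19 UMIs under stress and 1 and 2 UMIs in controls. These were 23.3 and 19.7 CPM under stress and 4.80 and 9.92 CPM in controls (log2 1.52, SE 0.72, edgeR adjusted p = 0.653).

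Monocyte identity genes gave no call, with 7 of 18 positive and a median of -0.13. Plac8 had 6345 and 5583 CPM under stress, against 5054 and 3481 CPM in controls (log2 0.48, edgeR adjusted p = 0.577). Fn1 had 439 and 443 CPM under stress, against 461 and 828 CPM in controls (log2 -0.55, edgeR adjusted p = 0.629). Of 13 genes of resident macrophages 9 were negative, with a median of -0.25 that was -0.09 without control 1, -0.48 without control 2 and -0.15 without either stress library. With equal numbers of cells drawn per library, 4 of 7 tested genes were positive and the median was 0.07. Mrc1, the mannose receptor, had 24.4 and 16.6 CPM under stress, against 76.8 and 44.6 CPM in controls (log2 -1.57, edgeR adjusted p = 0.355). Cx3cr1, the fractalkine receptor of patrolling monocytes and gut macrophages, had 67.8 and 42.5 CPM under stress, against 76.8 and 164 CPM in controls (log2 -1.12, edgeR adjusted p = 0.492).

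The monocytes varied widely among themselves in MHC class II. Of 2000 UMIs drawn per cell, the sum of H2-Aa, H2-Ab1, H2-Eb1 and Cd74 had a median of 32.5 and 34 UMIs in stress libraries, and of 20 and 7 UMIs in control libraries. The lowest cell had 0 in each library and the highest had 152 and 164 under stress and 128 and 130 in controls. A limit of 10 UMIs, chosen after the values were seen, placed 69.4% and 69.0% of the monocytes under stress and 59.5% and 48.4% of those in controls in the upper range. Between 5 and 19 UMIs, and so near that limit, were 36 and 16 cells of stress libraries and 5 and 5 cells of control libraries. Guanylate-binding proteins (Gbp2 to Gbp9 summed) were at 0 in 17.5% and 18.6% of the monocytes of stress libraries, against 43.2% and 77.4% of those of control libraries.

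**Figure D4:**
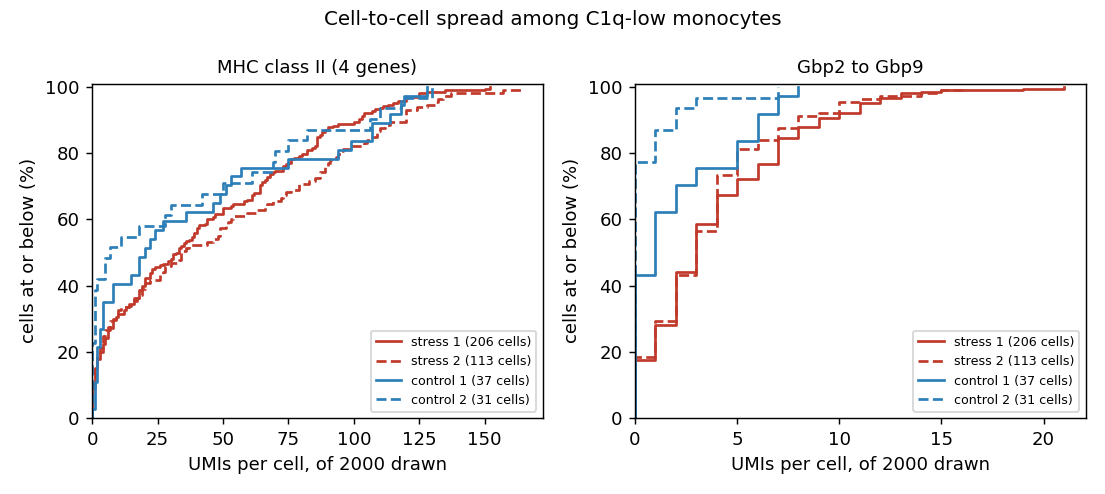
Cumulative percent of C1q-low monocytes by UMIs per cell, of 2000 drawn, for 4 MHC class II genes (left) and for Gbp2 to Gbp9 (right). Lines are single libraries, red for stress and blue for control, and at 0 Gbp UMIs the lines stand at 17.5% and 18.6% in stress libraries and at 43.2% and 77.4% in control libraries.

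Cells above and below that limit differed along other monocyte genes, given as a description in plain CPM. Vcan, the proteoglycan versican of classical monocytes, had 64.4 and 35.4 CPM in cells of the upper range under stress and 31.0 and 8.73 CPM in those of controls. In cells of the lower range it had 182 and 152 CPM under stress and 233 and 97.6 CPM in controls. Also lower in the upper range in every library were Mgst1 (median log2 ratio -1.61), Fn1 (-1.50) and F13a1 (-1.46). Higher in the upper range in every library were H2-DMb1, a class II peptide loader (3.21), Tmem176a (1.93), Ly6a (1.92) and Aif1 (1.33). The rule's own gene Chil3 had 682 and 356 CPM in the upper range under stress and 364 and 323 CPM in controls, against 1371 and 1857 CPM in the lower range under stress and 1024 and 423 CPM in controls.

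The stress difference in interferon gamma genes was present in both ranges. The summed list came to 8500 and 8080 CPM in the upper range under stress, against 5967 and 2542 CPM in controls. In the lower range it came to 9447 and 6835 CPM under stress, against 4153 and 2830 CPM in controls. In each range both stress libraries lay above both control libraries. The control values rest on 22 and 15 cells in the upper range and on 15 and 16 cells in the lower range. T and NK cell markers summed to 190 and 335 CPM in the upper range under stress and to 209 and 52.4 CPM in controls, and to 69.7 and 46.1 CPM in the lower range under stress and 11.6 and 10.8 CPM in controls. Dendritic cell markers summed to 232 and 208 CPM in the upper range under stress and 147 and 279 CPM in controls, and to 85.2 and 70.9 CPM in the lower range under stress and 46.5 and 86.7 CPM in controls. The part of barcodes that hold RNA of these cells was not tested.

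The stress change in the monocytes was then set against that in C1q-high macrophages of the same libraries, in an edgeR fit with the library as a block. The difference between the changes passed the threshold for 32 of 7311 genes (0.438%), 24 higher in monocytes (0.328%) and 8 lower (0.109%). Among the 32 was C1qb, a gene of the rule, whose test is not read. Without stress 2 the fit called 8 genes, 5 of them among the 32, and without control 2 it called 172 genes, 31 of them among the 32. Without control 1 it called 66 genes and without stress 1 it called 24. CPM in the following paragraphs are those of that fit, and each value is a difference of log2 changes, monocytes minus macrophages.

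MHC class II genes were among those that differed. H2-Ab1 had 4898 and 5156 CPM in monocytes of stress libraries, against 3168 and 3953 CPM in monocytes of control libraries. In macrophages it had 12593 and 12918 CPM under stress, against 15068 and 13723 CPM in controls. The changes differed by 0.68 (SE 0.12, edgeR adjusted p = 0.00429). In fits of each class alone, H2-Ab1 changed by log2 0.49 in monocytes (edgeR adjusted p = 0.492) and by -0.17 in macrophages (adjusted p = 0.755). H2-Aa (0.64, edgeR adjusted p = 0.00400), H2-Eb1 (0.60, adjusted p = 0.0151) and Cd74, the invariant chain (0.55, adjusted p = 0.00455), differed in the same direction. None of these 4 genes passed in a fit of either class alone, and Cd74 changed by log2 0.01 in monocytes and by -0.56 in macrophages. None of the 4 passed without stress 2 (adjusted p between 0.209 and 0.841), where the difference was 0.66 for H2-Ab1, and without control 1 it was 0.45 for H2-Ab1 and 0.40 for H2-Eb1. Of 13 genes of the class II presentation list, 12 had a positive difference (median 0.55, against 0.03 over all genes).

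Chemokines differed too. Ccl3, a ligand of the receptor Ccr1, had 62.1 and 152 CPM in monocytes under stress, against 13.8 and 42.6 CPM in controls, and 102 and 104 CPM in macrophages under stress, against 567 and 546 CPM in controls (difference 4.35, SE 0.51, edgeR adjusted p = 0.000979). Its control values in monocytes rest on few molecules. In fits of each class alone, Ccl3 changed by log2 1.93 in monocytes (edgeR adjusted p = 0.631) and by -2.43 in macrophages (adjusted p = 6.8e-05). Cxcl10 had 1335 and 872 CPM in monocytes under stress, against 533 and 37.8 CPM in controls. In macrophages it had 693 and 410 CPM under stress, against 677 and 34.7 CPM in controls (difference 1.32, SE 0.22, edgeR adjusted p = 0.000979). Both classes were lowest for Cxcl10 in control 2. It did not pass without stress 1 (adjusted p = 0.129), stress 2 (0.150) or control 1 (0.796, difference 0.89). The immediate early factor Egr1 (2.63, edgeR adjusted p = 0.00152) and the adhesion molecule Icam1 (1.13, adjusted p = 0.0301) also had the higher change in monocytes. Fitted alone, Egr1 changed by log2 0.56 in monocytes (edgeR adjusted p = 0.776) and by -2.07 in macrophages (adjusted p = 0.00133). Icam1 changed by 0.38 in monocytes (adjusted p = 0.738) and by -0.77 in macrophages (adjusted p = 0.0910). With 1 library left out, the Icam1 difference was 0.96 to 1.40.

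Cd209a, a lectin of monocyte-derived and dendritic cells, had the smallest p. It stood at 41.8 and 48.5 CPM in monocytes under stress, against 23 and 42.6 CPM in controls, and at 16.3 and 6.51 CPM in macrophages under stress, against 53.0 and 174 CPM in controls (difference 3.79, SE 0.55, edgeR adjusted p = 0.000339). AA467197 differed by 4.62 (edgeR adjusted p = 0.0301) on the strength of 1 library, with 64.3 CPM in monocytes of stress 1 and 4.95 CPM in those of stress 2, against 4.59 and 0 CPM in controls. It was 3.03 without stress 1 (adjusted p = 0.939) and 8.45 without control 1.

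Genes with a lower change in monocytes included Clec4e. It had 665 and 559 CPM in monocytes under stress, against 620 and 397 CPM in controls, and 420 and 431 CPM in macrophages under stress, against 160 and 84.3 CPM in controls (difference -1.51, SE 0.23, edgeR adjusted p = 0.000464). The lactate exporter Slc16a3 had 186 and 183 CPM in monocytes under stress, against 216 and 123 CPM in controls. In macrophages it had 86.5 and 81.9 CPM under stress, against 27.1 and 14.9 CPM in controls (difference -1.86, edgeR adjusted p = 0.00971). Irf7 (-1.92, edgeR adjusted p = 0.00455), Ifitm3 (-0.75, adjusted p = 0.00455) and Ly6e (-0.83, adjusted p = 0.00956), genes induced by interferon, belonged to the same group. Without stress 2 none of these 5 genes passed (adjusted p between 0.104 and 0.869), and Without stress 1 Irf7, Slc16a3, Ly6e and Ifitm3 did not pass, and without control 1 Irf7, Slc16a3 and Ly6e did not pass.

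For the interferon gamma list as a whole the median difference between monocytes and macrophages was 0.01 over 29 genes, with Cxcl10 the only member that passed. In macrophages the summed list came to 7108 and 5867 CPM of plain UMIs under stress, against 3754 and 2770 CPM in controls. Monocytes in transition were too few in control libraries (8 and 2 cells) for such a fit.

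**Figure D5:**
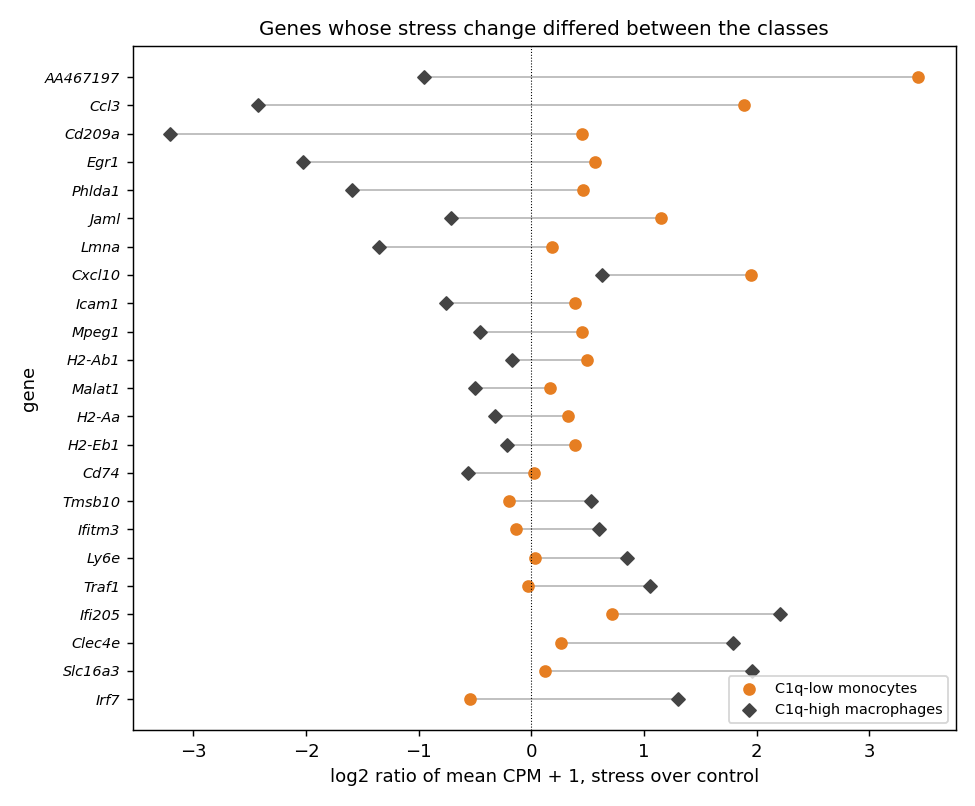
Log2 ratio of mean CPM + 1, stress over control, in C1q-low monocytes (orange circles) and C1q-high macrophages (grey diamonds) for the 23 named genes whose stress change differed between the classes. Ccl3 lies right of 0 in monocytes and left of 0 in macrophages, and Clec4e lies near 0 in monocytes and right of 0 in macrophages.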

How the data were processed

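The deposited matrices hold raw UMI counts for each gene in each barcode. The authors used Cell Ranger (versions 5 and 5.0, per the submitters' processing notes; the matrix headers name 3.1.0) on mm10. The annotation release and the strand setting are not given in the sources used here. Barcodes with at least 500 UMIs, 200 genes and at most 10% mitochondrial UMIs were kept (8319 and 4127 in stress libraries, 2546 and 5436 in control libraries). Doublets were scored with Scrublet in scanpy 1.11.5 and kept, except in an alternative. Counts were summed per library and class (920527 and 993674 UMIs in monocytes of stress libraries, 219138 and 206725 in those of control libraries) and fitted with edgeR 4.0.16 (TMM, filterByExpr, robust quasi-likelihood, Benjamini-Hochberg). Simulated counts were used to test the fit. Single values were compared by exact permutation. Coordinates are 1-based from GENCODE vM21 on GRCm38, the assembly of mm10.

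The members and gene lists were chosen with earlier results of these data known. Named genes were those past the threshold, up to 15 per direction by p, else up to 5 of the smallest p with at least 20 CPM, and up to 6 per list by p. Alternatives changed the filters, thresholds, doublets, normalization, depth, test (DESeq2 1.42.0), replicate block and libraries used. The labels do not say whether the replicate numbers pair the libraries. The deviations of stress 1 and control 1 from their group means had a correlation of -0.02. That value rests on 2 libraries per group and few control cells, and so cannot decide whether they are paired. A called gene and some other genes are not reported here.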

Additional observations from a re-analysis of the deposited data

Results flagged for a closer look

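The genes below stand out because the stress change in C1q-low monocytes differed from that in C1q-high macrophages of the same libraries, by an edgeR test of the difference itself (adjusted p under 0.05). Values are differences of log2 changes, monocytes minus macrophages. They do not say which class changed. None of these genes passed in the fit of monocytes alone, where AA467197 was not tested. Ccl3, Lmna, Egr1, Phlda1, Clec4e, Slc16a3 and Traf1 passed in the fit of macrophages alone. The change was higher in monocytes for Cd209a (3.79), Cxcl10 (1.32), Ccl3 (4.35), Lmna (1.55), Egr1 (2.63), H2-Aa (0.64), H2-Ab1 (0.68) and Phlda1 (2.06). It was also higher for Cd74 (0.55), Malat1 (0.66), Mpeg1 (0.90), H2-Eb1 (0.60), AA467197 (4.62), Icam1 (1.13) and Jaml (1.91). The change was lower in monocytes for Clec4e (-1.51), Irf7 (-1.92), Ifitm3 (-0.75), Ly6e (-0.83), Slc16a3 (-1.86), Traf1 (-1.11), Tmsb10 (-0.72) and Ifi205 (-1.47). Without control 1 the value was -6.09 for Ifi205 (adjusted p = 0.563), 1.06 for Jaml (0.634), 8.45 for AA467197, 0.40 for Malat1, 0.45 for H2-Ab1 and 0.40 for H2-Eb1. Without stress 1 that of AA467197 was 3.03 (adjusted p = 0.939). Lmna had 165 and 149 CPM in monocytes under stress, against 115 and 161 CPM in controls, and 392.4 and 393.7 CPM in macrophages under stress, against 1134 and 878 CPM in controls.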

How the results depend on the processing

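Both shares of C1q-low monocytes stayed higher under stress in every alternative run (exact permutation p = 0.333 wherever both groups kept 2 libraries). The count of changed genes, 6, was 11 at up to 5% mitochondrial UMIs, 2 when cells were chosen after thinning or drawn to equal numbers per library, 53 without the low-count filter and 3 with DESeq2. Leaving out 1 library gave 11 to 163 calls, with the lone library of a group assumed to vary like the others. With the replicate number as a block the fit called 2 genes, Igha and Igkc, and with the crossed pairing, chosen after seeing the data, it also called 2. Differences from macrophages numbered 32, 68 without the low-count filter and 8 to 172 with 1 library left out. Shares of thinned monocytes with a UMI turned sign for 4 scarce genes. The Tnf difference, stress minus control, was -0.142 percentage points, but 0.926 at 1000 UMIs, 6.74 unthinned and -1.13 to 0.842 with 1 library left out. That of Il6 was -0.671 unthinned and -0.466 to 3.02 with 1 library left out, that of Il10 was 0.491 unthinned and -2.26 to 0.442, and that of Ccl2 was -9.11 to 6.58. The cause of these changes was not tested. The control libraries held only 40 and 31 monocytes, and the part of these numbers in the precision was not tested.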

Other observations

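Some genes of other lists, each among the smallest p of its list and none past the threshold, are given for C1q-low monocytes as TMM-scaled CPM. C3, the central complement component, had 206 and 251 CPM under stress, against 139 and 59.5 CPM in controls (log2 1.19, edgeR adjusted p = 0.309). Irf8, a factor of monocyte and dendritic cell development, had 341 and 245 CPM under stress, against 158 and 164 CPM in controls (log2 0.86, edgeR adjusted p = 0.369). Casp4, the inflammatory caspase that senses cytosolic lipopolysaccharide, had 208 and 193 CPM under stress, against 144 and 64.5 CPM in controls (log2 0.93, edgeR adjusted p = 0.492). Fpr2, a receptor for formylated peptides, had 30 and 24 UMIs under stress, against 0 and 1 UMIs in controls (edgeR adjusted p = 0.355). Cd68, a lysosomal glycoprotein of phagocytes, pointed the other way, with 307 and 300.4 CPM under stress, against 494 and 417 CPM in controls (log2 -0.59, edgeR adjusted p = 0.498). Ace and Spn, which mark non-classical monocytes, were highest in control 2: Ace had 11.1 and 26.9 CPM under stress, against 24.0 and 84.3 CPM in controls, and Spn had 23.3 and 25.9 CPM under stress, against 19.2 and 79.3 CPM in controls.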
